A study of Mus musculus with 4 samples.

Results

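Genes of glycolysis and of the cell's response to low oxygen were followed in cultured mouse bone marrow cells, with the oxygen sensor Egln3 among them. The set was a list of 36 genes known for these roles, of which 33 were measured among the 12394 genes on the arrays. It was chosen with earlier results of these data known. Each gene was read by 1 probe set, a group of short array probes for 1 transcript: the brightest of those annotated to that gene alone. Bnip3l lay only on probe sets that also match its pseudogene, and Gpi1 and Eno1 were not analysed here. The measured genes were 5 of oxygen sensing (Egln1, Egln2, Egln3, Hif1a, Vhl), 8 targets of the hypoxia factor HIF outside glycolysis, 4 glucose and lactate transporters and 16 glycolytic enzymes. Egln3 is itself a known HIF target and was kept with the sensors.

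All samples came from Mll-AF4stop knock-in mice, whose Mll-AF4 fusion construct needs the recombinase Cre to become active. Every animal had received 5-FU, a drug that kills dividing blood cells, and its marrow was infected in culture 5 days later. One group was infected with a Cre-GFP retrovirus and the other, the control, with a GFP retrovirus. The sample labels name the control virus GFP-control or MIG-GFP, while the series' design text calls it MIG-Cre. The comparison below follows the sample labels, under which effects of Cre and of the fusion it activates cannot be told apart. Infected cells were sorted for GFP after 2 days and kept for 14 days with cytokines that favour lymphoid progenitors. Each group has 2 arrays, and no label ties the arrays to separate mice or cultures, so p-values measure only how these arrays vary, and that variation may be technical. Strain and age are not given in the sources used here.

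Cells sense oxygen through the Egln prolyl hydroxylases, which use oxygen to mark the alpha subunits of HIF. The Vhl ubiquitin ligase then binds the marked subunit and sends it for destruction. When oxygen is short the mark is not made, HIF alpha builds up as protein, and genes for glucose uptake, glycolysis, blood vessel growth and mitochondrial removal are switched on. Egln3 is induced by HIF and so forms part of a feedback loop. Bone marrow is a tissue of low oxygen, and glycolysis is also raised by growth signals in dividing blood cells. The arrays measure RNA and so do not show HIF protein.

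HIF binds DNA at a short core, written ACGTG or GCGTG, which was looked for on both strands in the 250 bases before the transcription start, with overlapping matches merged. Of the 33 measured genes, 31 were matched by symbol to RefSeq promoter windows of the GRCm38.p6 build, which hold 44 such windows. A core lay in 35 of these 44 windows (79.55%), against 38.6% of all 32851 windows. The members' windows were also richer in G and C, with a median of 61.0% against 52.4%, and both cores contain CG. The windows of 3 genes are shown to set the gene that differed most beside a HIF target that read lower and a textbook HIF target with almost no difference. Capitals mark the cores. The Egln3 window (chr12:54203875-54204124, minus strand) holds 1 core, 229 bases before the start. The Bnip3 window (chr7:138909507-138909756, minus strand) holds 4, starting 117, 108, 99 and 35 bases before it. The Pgk1 window (chrX:106186850-106187099, plus strand) holds 2, at 150 and 131 bases. A core in these letters is a match and not a measured binding site.
Egln3: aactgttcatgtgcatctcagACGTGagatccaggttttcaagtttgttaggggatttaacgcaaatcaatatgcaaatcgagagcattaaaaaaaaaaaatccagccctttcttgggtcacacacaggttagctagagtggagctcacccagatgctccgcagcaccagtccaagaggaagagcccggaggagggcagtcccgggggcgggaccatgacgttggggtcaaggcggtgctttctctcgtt
Bnip3: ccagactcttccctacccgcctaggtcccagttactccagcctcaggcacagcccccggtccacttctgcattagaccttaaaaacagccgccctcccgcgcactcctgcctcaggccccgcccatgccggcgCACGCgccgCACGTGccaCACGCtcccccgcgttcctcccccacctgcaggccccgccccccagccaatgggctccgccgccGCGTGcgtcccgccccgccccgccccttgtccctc
Pgk1: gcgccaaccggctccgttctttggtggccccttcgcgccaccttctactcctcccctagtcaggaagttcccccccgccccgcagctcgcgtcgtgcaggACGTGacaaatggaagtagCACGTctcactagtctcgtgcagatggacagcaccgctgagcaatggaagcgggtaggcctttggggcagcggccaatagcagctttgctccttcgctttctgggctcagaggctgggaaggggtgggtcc

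Among the oxygen sensors, Egln3 stood apart from the other 4. Egln3, a prolyl hydroxylase that acts on HIF alpha and on other proteins, read 8.12 and 8.32 on the log2 scale on Cre-GFP 1 and 2. On control 1 and 2 it read 6.50 and 5.93. Both Cre-GFP arrays lay far above both control arrays, and the gap between groups was wider than the gap of 0.575 between the control arrays. In linear intensity this was 279 and 319.5 against 90.7 and 60.9, with the controls near the array medians of 85.1 to 87.7. The log2 difference, Cre-GFP minus control, was 2.01 ± 0.22 (SE, n = 2 arrays per group), or 4.02-fold, with a 95% interval from 1.47 to 2.54. Only 4 of the 12394 genes, Egln3 included, differed by as much in this direction, and Egln3 was 8th by p. The list was chosen with earlier results of these data known, so these ranks are a description and not a test. Egln3 did not pass the threshold of 0.05 over all genes (adjusted p = 0.15 in limma). It passed when control 1 was left out (2.29, adjusted p = 5.4e-04) or control 2 (1.72, adjusted p = 0.013), where the lone control array is assumed to vary like the other group. Without Cre-GFP 1 or 2 the difference was 2.10 and 1.91 and did not pass (adjusted p = 0.48 and 0.90). A second Egln3 probe set read 6.94 and 6.69 against 6.13 and 6.10, again with no overlap, for a smaller difference of 0.70 ± 0.14. The mean of both probe sets differed by 1.35.

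On the probe sets used, neither of the other Egln enzymes differed by more than the gap between the arrays of a group. Egln1, the main HIF hydroxylase in most tissues, read 9.002 and 8.63 on Cre-GFP 1 and 2 and 8.54 and 8.75 on the controls. The groups overlapped and the difference was 0.17 ± 0.20, with a 95% interval from -0.33 to 0.66. A second Egln1 probe set read 7.20 and 6.81 against 6.89 and 6.55, a difference of 0.29 ± 0.20 with overlap. Egln2, a sister enzyme found mainly in the nucleus, read 9.18 and 8.96 against 8.91 and 9.08, which is 0.08 ± 0.18 higher with overlap. The 95% intervals of Egln1 and Egln2 both ended below the lower limit for the brighter Egln3 probe set. Hif1a, the oxygen-regulated HIF subunit, read 9.003 and 10.12 against 9.20 and 9.69. The 2 Cre-GFP arrays enclosed both controls, so Hif1a varied more within a group than between groups (0.12 ± 0.39). Leaving out Cre-GFP 2 gave -0.44 and leaving out Cre-GFP 1 gave 0.68. Another Hif1a probe set read higher on both Cre-GFP arrays by 0.39 ± 0.14, while the remaining 2 differed by 0.09 and -0.01. Vhl, the ligase subunit that recognises hydroxylated HIF, read 6.32 and 6.47 against 6.36 and 6.25, a difference of 0.09 ± 0.13.

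**Figure D1:**
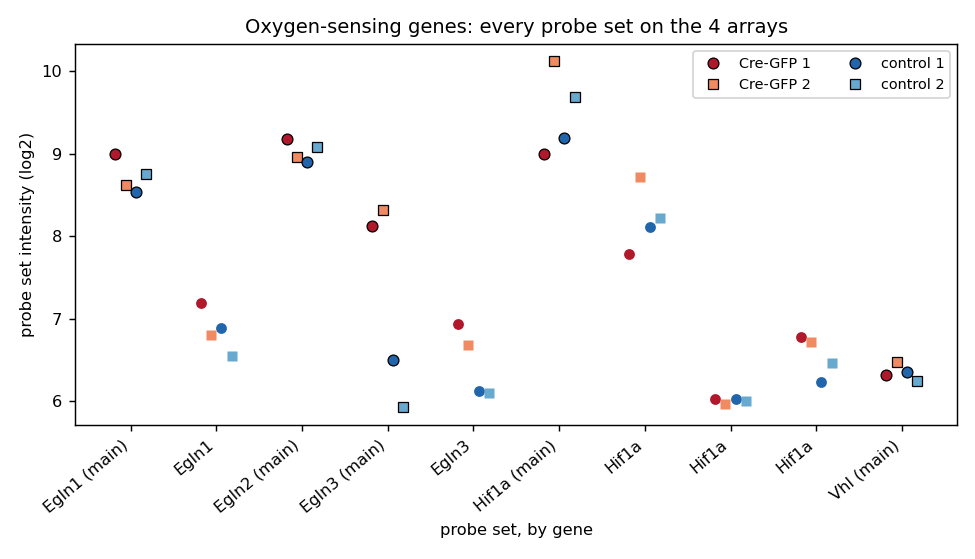
Intensity (log2, vertical axis) of each probe set of the 5 oxygen-sensing genes on the 4 arrays; black outlines and "main" mark the probe set used. Red and orange are Cre-GFP 1 and 2, dark and light blue control 1 and 2: on the main Egln3 probe set Cre-GFP lies at 8.12 and 8.32, above both controls at 6.50 and 5.93, while the points of Egln1, Egln2 and Vhl mix.

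The 8 measured HIF targets outside glycolysis showed no common direction. They split evenly, 4 higher and 4 lower in Cre-GFP, with a median log2 difference of 0.023 beside a median of 0.00 over all genes. No gene of the set passed over all genes, nor did any of the 12394 (0% called). In all, 286 genes were higher (2.31%) and 314 lower (2.53%) at an unadjusted p under 0.05, and an ordinary two-sample test called 2. Of the 33, 5 were higher and 1 lower at that unadjusted p. Without control 1 or control 2 the number of all genes that passed was 135 and 34, and it was 0 without either Cre-GFP array.

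Ndrg1, a stress-response protein and common hypoxia marker, was the HIF target with the highest reading in Cre-GFP relative to control. It read 9.08 and 9.19 against 8.43 and 8.72, with no overlap and control 1 the lowest. The difference was 0.56 ± 0.18 (1.48-fold, adjusted p = 0.84 in limma). The other 4 Ndrg1 probe sets differed by 0.05 to 0.88, all upward. The opposite was seen for Bnip3, a mitochondrial protein that promotes the removal of mitochondria in low oxygen. It read 7.83 and 8.18 against 8.50 and 8.63, lower on both Cre-GFP arrays, a difference of -0.56 ± 0.19 (1.47-fold, adjusted p = 0.84). P4ha1, the catalytic subunit of collagen prolyl hydroxylase, read 6.34 and 6.43 against 6.56 and 7.37. Both Cre-GFP arrays were lower, but control 2 alone stood high and made most of the difference of -0.58 ± 0.26. Without control 1 it was -0.98 (adjusted p = 0.042) and without control 2 only -0.18. A second, dimmer P4ha1 probe set differed by 0.04.

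The remaining HIF targets lay close to no difference, and their groups overlapped on the probe sets used. Vegfa, the main growth factor for blood vessels, read 7.55 and 7.46 against 7.63 and 7.42, a difference of -0.02 ± 0.15. Its other probe set differed by -0.15 ± 0.18 with overlap. Adm, the vasodilator peptide adrenomedullin and a strong HIF target, read 5.20 and 5.18 against 5.27 and 5.17, a difference of -0.02 ± 0.10 at a low intensity. Pdk1, a mitochondrial kinase that inhibits pyruvate dehydrogenase and so keeps pyruvate from the TCA cycle, read 10.75 and 11.06 against 10.79 and 10.72. Its difference was 0.15 ± 0.18, with a 95% interval from -0.28 to 0.59. The other Pdk1 probe set read 9.07 and 9.05 against 8.86 and 8.97, higher without overlap by 0.15 ± 0.16. Pdk3, a related kinase, differed by 0.07 ± 0.21. P4ha2, a second collagen hydroxylase subunit, was dim, with all its values in the lowest 20% of each array, and differed by 0.19 ± 0.13.

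Glucose and lactate transporters also went both ways, 2 higher and 2 lower, with a median of -0.11. Slc2a1, the glucose transporter of most blood cells and a HIF target, read 8.81 and 9.08 against 9.21 and 9.28. Both Cre-GFP arrays were lower, a difference of -0.30 ± 0.18, while its other probe sets differed by -0.15 and 0.05. Slc2a3, a high-affinity glucose transporter, differed by 0.01 ± 0.20. Its other probe sets differed by -0.17, -0.14 and 0.09, the last higher without overlap at a low intensity. Slc16a3, the lactate exporter of glycolytic cells and a HIF target, read 6.05 and 5.78 against 5.69 and 5.70, a difference of 0.22 ± 0.13. Slc16a1, a lactate and pyruvate transporter, read 9.98 and 10.56 against 10.10 and 10.88, with array 2 of each group the higher. Its difference of -0.22 ± 0.32 became 0.17 without control 2 and -0.61 without control 1. With control 2 left out the median of the 4 transporters was 0.16, and with Cre-GFP 1 left out 0.077, so its sign rested on single arrays.

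Glycolytic enzymes leaned upward by small amounts. Of the 16 measured, 10 were higher and 6 lower in Cre-GFP, with a median of 0.19. Single arrays left out gave medians from 0.11 (without control 1) to 0.18. In 5 of the 16 both Cre-GFP arrays lay above both controls and in 1 both lay below. Over all 33 genes these counts were 8 higher (24.2%) and 4 lower (12.1%), while over all genes 15.2% were higher and 14.9% lower without overlap. With Egln3 left out the upward count was 7 of 32 (21.9%). The difference between enzymes and HIF targets was not tested.

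The entry step of glycolysis carried its largest difference. Hk1, the hexokinase that traps glucose in most tissues, read 9.50 and 9.43 on the Cre-GFP arrays and 8.47 and 8.96 on the controls. The groups did not overlap and control 1 was lowest. The difference was 0.75 ± 0.22 (1.69-fold, adjusted p = 0.76 in limma), or 0.51 without control 1 and 1.0 without control 2. A second, dim Hk1 probe set differed by 0.04, so the mean of both gave 0.40. Hk2, the inducible hexokinase and a HIF target, read 9.06 and 9.25 against 9.45 and 9.05, with overlap and a difference of -0.09 ± 0.21.

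The 3 subunits of phosphofructokinase, the main control point of the pathway, each overlapped between groups on the probe set used. Pfkl read 9.69 and 9.47 against 9.62 and 8.98. On this probe set the difference of 0.28 ± 0.25 rested on the low control 2 (-0.04 without it). The other Pfkl probe set read 8.38 and 8.395 against 8.20 and 8.15, higher without overlap by 0.21 ± 0.15. Pfkm differed by 0.19 ± 0.16 and Pfkp by -0.10 ± 0.20, with 0.07 on its other, dimmer probe set. Pfkfb3 makes the sugar phosphate that activates phosphofructokinase and is a HIF target. It read 6.55 and 6.54 against 6.30 and 6.34, with close agreement within groups and a difference of 0.22 ± 0.12. Its other probe set differed by -0.04.

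In the middle of the pathway the aldolases differed from each other in sign. Aldoa, the main aldolase of blood cells, read 8.71 and 9.34 against 8.96 and 9.36, a difference of -0.13 ± 0.27, and its other 3 probe sets differed by -0.10 to -0.18. Leaving out Cre-GFP 1 gave 0.19 and leaving out control 2 gave 0.070. Aldoc, an aldolase best known from brain, read 6.40 and 6.30 against 5.64 and 6.11, with control 1 lowest. Its difference was 0.48 ± 0.18, 0.24 without control 1 and 0.71 without control 2, while its second, dim probe set differed by 0.01. Tpi1, triose phosphate isomerase, read 9.21 and 9.30 against 8.97 and 8.89. The arrays of each group lay within 0.09 of each other, and the difference was 0.32 ± 0.16. Both other Tpi1 probe sets were also higher without overlap, by 0.30 and 0.27.

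Gapdh, the dehydrogenase often used as a reference gene, read 12.73 and 12.76 against 12.53 and 12.74, a difference of 0.11 ± 0.13. Its probe sets are the array's own control probes, at the 3' end, the middle and the 5' end of the transcript. On the log2 scale the 3' end exceeded the middle by 2.70 on control 1 and by 1.80 to 2.14 on the other 3 arrays. The excess over the 5' end was 3.99 on Cre-GFP 1 and 4.24 to 4.32 on the others. Control 1 was the lowest array for 6 of the 16 enzymes, among them Hk1, Aldoc and Ldha, and control 2 for another 6. Whether RNA quality had a part in these readings was not tested. Pgk1, phosphoglycerate kinase, read 13.61 and 13.76 against 13.77 and 13.72, a difference of -0.06 ± 0.11 near the top of the intensity range. Its other probe sets differed by 0.18 and -0.03.

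Pgam1, phosphoglycerate mutase, differed by 0.18 ± 0.20. Eno2, the enolase of nerve cells, read under each array's 20th percentile and differed by -0.11 ± 0.10. Pkm, the pyruvate kinase of blood cells, read 11.08 and 10.83 against 10.52 and 10.41. Both Cre-GFP arrays were higher, by 0.49 ± 0.17 (1.41-fold, adjusted p = 0.89 in limma), and by 0.37 to 0.62 when single arrays were left out. Ldha, which turns pyruvate to lactate and is a target of both HIF and Myc, read 9.18 and 9.76 against 8.57 and 9.37. Control 2 lay between the Cre-GFP arrays, and the difference of 0.50 ± 0.33 was 0.11 without control 1 and 0.90 without control 2. Ldhb, the subunit that favours the reverse step, read 7.87 and 7.95 against 8.01 and 7.90, a difference of -0.04 ± 0.15. Its other, dimmer probe sets differed by 0.12 (higher without overlap), 0.02 and -0.18 (lower without overlap).

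**Figure D2:**
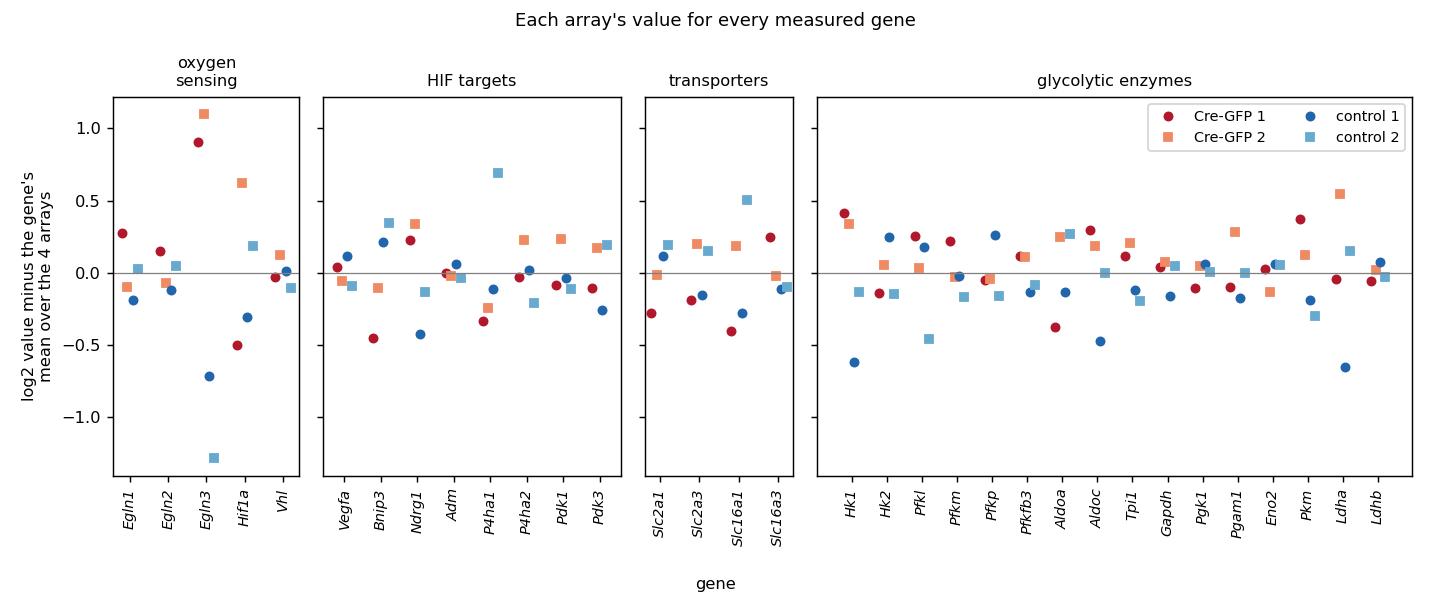
Each array's log2 value minus the gene's mean over the 4 arrays (vertical axis) for all 33 genes, by role; red and orange are Cre-GFP 1 and 2, dark and light blue control 1 and 2. Egln3 separates the colours most, Hif1a and Ldha spread widely within a group, and Tpi1 and Pfkfb3 show small, tight separations.

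Set against the rest, Egln3 on its brighter probe set differed far more than any other gene of the list. With the list chosen after earlier results of these data, this contrast is a description and not a test. The next highest difference was 0.75 (Hk1) and the lowest -0.58 (P4ha1). The second Egln3 probe set differed by 0.70, less than Hk1 and less than an Ndrg1 probe set not used here (0.88). Of the other 32 genes, 20 were higher and 12 lower, 27 differed by less than 0.5 in either direction and 1 reached 1.5-fold. Their 95% intervals, each for 1 gene and not adjusted for their number, all ended below 1.47, the lower limit for the brighter Egln3 probe set. In 27 of the 32 the interval held 0. The arrays do not show that these genes were alike in both groups: 7 of the 32 intervals reached past 1 or -1, a 2-fold difference. The median absolute difference was 0.17 in the 32 genes and 0.10 over all genes.

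**Figure D3:**
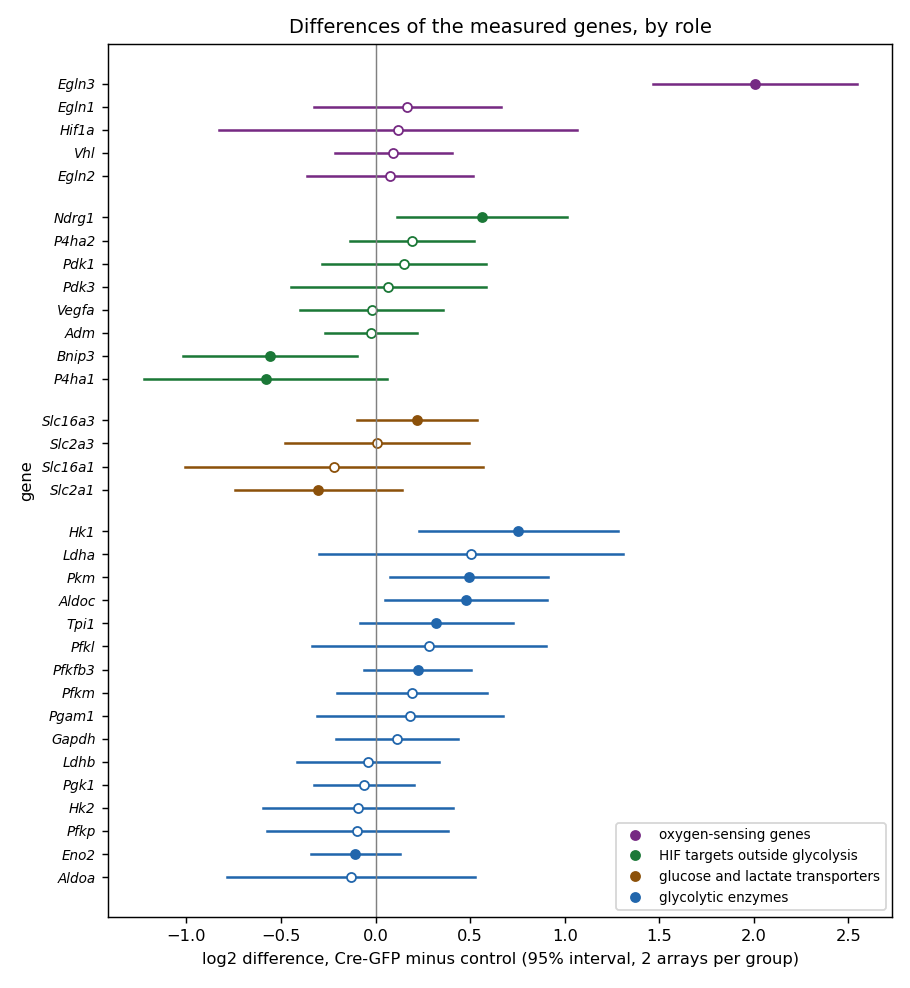
Log2 difference, Cre-GFP minus control (horizontal axis, points), with its 95% interval (lines) for each of the 33 genes, coloured by role; filled points mark groups that do not overlap. Egln3 at 2.01, from its brighter probe set, is the only interval wholly above 1, and most others cross 0.

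**Figure D4:**
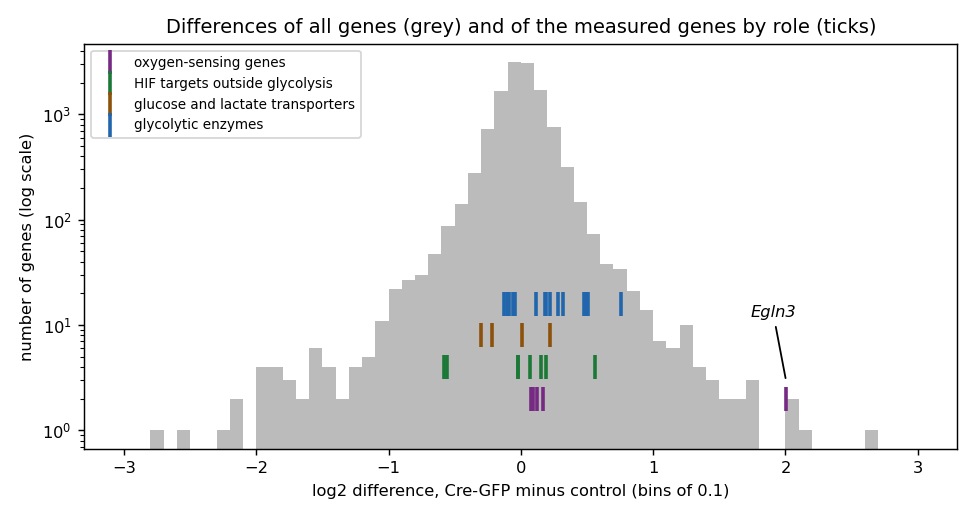
Number of genes (vertical axis, log scale) in bins of the log2 difference for all 12394 genes in grey, with ticks for the 33 genes in a row per role. The Egln3 tick, from its brighter probe set, lies at 2.01 in the thin right tail, and the other ticks lie between -0.58 and 0.75.

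Other genes of the same pathways were taken from lists of their known members. Over all genes, 15.2% were higher and 14.9% lower without overlap, and no list was tested against these shares. Of 13 measured further HIF regulators, 1 was higher (7.69%) and 4 lower (30.8%) without overlap (median -0.07). Elob (-0.16 ± 0.14), Eloc (-0.32 ± 0.19) and Cul2 (-0.19 ± 0.17), partners of Vhl in the ligase, were among the lower. The 95% interval of each held 0, and the groups of Cul2 nearly touched (8.267 on Cre-GFP 2, 8.2715 on control 2). Vhl itself differed by 0.09 ± 0.13 with overlap. Arnt, the constant partner of HIF alpha, differed by -0.13 ± 0.10 at a low intensity. Of 28 further HIF targets, 4 were higher and 4 lower without overlap (14.3% each, median 0.05). Ddit4, a stress-induced brake on mTORC1 and also a p53 target, read 8.25 and 7.999 against 9.04 and 9.23. Both Cre-GFP arrays were lower, a difference of -1.01 ± 0.18 (adjusted p = 0.36 in limma). Cxcr4, the receptor that holds cells in the marrow, differed by -0.48 ± 0.20, also lower on both arrays.

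Further glycolysis genes gave 1 higher and 1 lower of 13 without overlap (7.69% each, median -0.04). These were Adpgk, an ADP-using glucokinase, at 0.28 ± 0.17 and Bpgm, which makes bisphosphoglycerate, at -0.13 ± 0.12. In the pentose phosphate pathway, which draws sugar off for nucleotides and NADPH, 3 of 7 were higher (42.9%) and 1 lower (14.3%) without overlap. The transketolase Tkt differed by 0.36 ± 0.16 and the dehydrogenase Pgd by 0.31 ± 0.18. Pyruvate dehydrogenase and TCA cycle genes had 4 of 21 higher (19%) and 1 lower (4.76%) without overlap, with a median of 0.00. The largest by p were Idh3g (0.27 ± 0.15), an isocitrate dehydrogenase subunit, and Suclg1 (0.28 ± 0.19), a succinyl-CoA ligase subunit. Of 10 other enzymes of the Egln type, which use oxygen and oxoglutarate, 4 were higher (40%) and 0 lower without overlap (median 0.02). All genes gave 15.2% higher and 14.9% lower. Asph, an aspartyl hydroxylase, read 6.70 and 6.57 against 6.13 and 6.31, a difference of 0.42 ± 0.13, and Riox2, a ribosomal oxygenase, differed by 0.42 ± 0.22. None of the genes in these lists passed over all genes.

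The 10 measured genes nearest to Egln3 in the genome order, 5 on each side, had a median difference of 0.03. Next to Egln3 lie Npas3, a brain transcription factor (0.20 ± 0.14), and Sptssa, a subunit of sphingolipid synthesis (0.04 ± 0.22). Arhgap5, the second measured gene on the Npas3 side, read 7.41 and 7.81 against 6.77 and 6.85. It was higher without overlap by 0.79 ± 0.18 (unadjusted p = 0.0043, adjusted p = 0.57 in limma). Of the other 9, dim Gpr33 (0.08 ± 0.10) also did not overlap. The rest were Ap4s1 (-0.41 ± 0.41), Dtd2 (0.01 ± 0.18), Eapp (-0.25 ± 0.24), Snx6 (-0.17 ± 0.19), Cfl2 (-0.05 ± 0.20) and 2700097O09Rik (0.04 ± 0.18).

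Markers of blood cell types differed between the same arrays. Surrogate light chain genes of early B cells were bright on all 4 arrays, with Vpreb1 at 13.28 to 13.80 and Igll1 at 13.60 to 13.83. All 11 measured B lineage markers were lower in Cre-GFP, 8 of them (72.7%) without overlap. Over all genes 14.9% were lower and 15.2% higher without overlap. The summed intensity of the B lineage markers was 29837 to 30413 against 36850 to 42145. Vpreb1 and Igll1 made up most of these sums, and Vpreb1 overlapped between groups. The median log2 difference of the 11 B lineage markers was -0.51, from -2.26 (Spib) to -0.07 (Pax5). Of 11 monocyte and macrophage markers, 9 were higher (3 without overlap), with sums of 2591 to 3232 against 1717 to 2445. Their median difference was 0.11, from -0.06 (C1qa) to 1.13 (Csf1r). Of 9 neutrophil and granule markers, 8 were higher (4 without overlap), with overlapping sums of 3710 to 4432 against 1476 to 5169 and control 1 the lowest. The median difference of these 9 was 0.70, from -0.12 (Camp) to 1.25 (Mpo). Of 8 erythroid markers, 3 were higher (2 without overlap) and 5 lower (1 without overlap), with a median of -0.04. Their sums were 894 to 933 against 1631 to 1689, but without Car2, which differed by -1.46, the other 7 summed to 468 to 502 against 471 to 503.5. The median differences of T and NK, mast cell, megakaryocyte and stroma lists were 0.00, 0.00, 0.11 and 0.03. Under the 20th percentile on all arrays were 2 of 9 T and NK, 2 of 11 monocyte, 4 of 8 mast cell, 1 of 8 erythroid, 1 of 5 megakaryocyte and 4 of 8 stroma markers. In bulk RNA, fewer cells of a type and less RNA per cell cannot be told apart. The part of these markers in the readings of Egln3, Hk1 or the other enzymes was not tested.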

How the data were processed

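RNA from 4 samples, 20 ng each, was amplified with a NuGen Ovation kit and hybridized to Affymetrix mouse arrays, 2 per group. The authors deposited probe set intensity values made with RMA, per the submitters' processing notes, with a version not given in the sources used here. These deposited intensity values are on a linear scale (median 85.1 to 87.7 per array). They were put on the log2 scale here and not normalized again. RMA brings arrays to nearly one distribution and compresses differences of dim probe sets, so a change common to most genes is removed. Precision is limited by the number of arrays, and the median 95% interval of a gene reached 0.37 to either side.

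Of 22690 probe sets, 20393 were annotated to 1 symbol, 691 to several and 1606 to none. The brightest per gene gave 12394 genes. Groups were compared across all genes with limma 3.58.1 in R 4.3.3 (lmFit, eBayes with intensity trend, two-sided, Benjamini-Hochberg adjustment over all genes, threshold 0.05). The fit was tried on simulated data with the same spread for every gene, independent arrays and large planted differences. That trial does not show how the fit performs at the spread of these arrays. Errors after ± are limma's standard errors. Values of other probe sets came from a second, separate fit of the same kind over all probe sets with 1 symbol. Their errors therefore differ slightly from those of the main fit. Named genes were all measured members, the 2 smallest p per further list and 5 measured neighbours on each side of Egln3; Elob, Cul2 and the single markers were named after their values were seen. Members and lists were chosen with earlier results of these data known. Gene order and promoters came from RefSeq (GRCm38.p6). Alternatives were each array left out, a replicate block, median centring, repeated quantile normalization, a filter on the dimmest 40% of genes, low values raised to the 20th percentile of their array, the mean of probe sets, no shared probe sets, no intensity trend, and an ordinary two-sample test.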

Additional observations from a re-analysis of the deposited data

How the results depend on the processing

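With 2 arrays per group, each array was left out in turn: 0 to 135 of all genes and 0 to 2 of the 33 passed the threshold, and Egln3 differed by 1.72 to 2.29. Of the 33, 12 to 17 then did not overlap upward (36.4% to 51.5%) and 4 to 10 downward (12.1% to 30.3%), where all genes gave 27.6% to 38.7% and 28.6% to 36.6%, since 2 arrays against 1 overlap less often. Medians ranged from 0.062 to 0.27 for oxygen sensing, -0.011 to 0.086 for HIF targets, -0.31 to 0.16 for transporters, 0.11 to 0.18 for glycolytic enzymes and 0.016 to 0.17 for all 33 genes. The sign of 16 genes changed with an array left out: Egln1 (-0.019 to 0.36), Egln2 (-0.035 to 0.19), Hif1a (-0.44 to 0.68), Vegfa (-0.13 to 0.085), Adm (-0.074 to 0.025), Pdk1 (-0.0084 to 0.31), Pdk3 (-0.16 to 0.30), Slc2a3 (-0.18 to 0.20), Slc16a1 (-0.61 to 0.17), Hk2 (-0.29 to 0.11), Pfkl (-0.039 to 0.60), Pfkp (-0.31 to 0.11), Aldoa (-0.44 to 0.19), Pgk1 (-0.13 to 0.013), Pgam1 (-0.013 to 0.37) and Ldhb (-0.096 to 0.013). The choice of probe set moved some genes further: the mean of probe sets gave 1.35 for Egln3, 0.40 for Hk1, -0.053 for Slc2a3 and 0.028 for Pgk1. Shared probe sets are those with names ending in _a_at, _s_at or _x_at, though annotated here to 1 gene. Without them Aldoc differed by 0.010, Slc2a1 by 0.050, Slc2a3 by -0.17 and Pgk1 by 0.18. Hk1, Pfkl, Aldoa, Tpi1, Pgam1, Eno2, Ldha and Ldhb had no reading in that setting, because all their probe sets, those of Tpi1 included, are of this kind. Of the genes left, 6 were higher and 2 lower without overlap, against 8 and 4 of all 33 in the main comparison. The ordinary two-sample test passed 2 genes of all. The cause was not tested. Median centring, repeated quantile normalization, raised dim values and no intensity trend turned the sign of none of the 33 genes, nor did the filter on dim genes among those it kept (Adm, P4ha2, Slc16a3, Aldoc and Eno2 were filtered out). With the replicate block 0 genes passed and Egln3 had an adjusted p of 0.44 in limma. Same-numbered arrays deviated together over genes (r = 0.35), but with 2 pairs and no label that ties them they share only a number. Over these settings with all 4 arrays the adjusted p of Egln3 lay between 0.077 and 1. Genes under the arrays' 20th percentile, P4ha2 and Eno2 among the 33, give no reliable fold.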
